A study of Mus musculus with 4 samples.

Results

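Long-term hematopoietic stem cells (LT-HSC) that carried NPMc+ and Flt3-ITD together were set against what the 2 single mutants predict if their effects on expression add on the log scale. LT-HSC are the rare bone marrow cells that rebuild all blood lineages over the long term. NPMc+ is a mutant nucleophosmin that sits in the cytoplasm in place of the nucleolus, and Flt3-ITD is an internal tandem duplication that leaves the cytokine receptor tyrosine kinase FLT3 signalling without its ligand; both lesions are common in acute myeloid leukemia and often occur together. FLT3 signals through STAT5 and RAS, whose targets include feedback inhibitors such as Socs2 and Cish, and mutant nucleophosmin is known for upholding the Hoxa and Meis1 stem cell programme.

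The data were 4 single-cell libraries made with the 10x 3' chemistry, 1 per genotype: Mx, with the genotype MxCRE and named as the reference; NPMc+; Flt3-ITD; and NPMc+/Flt3-ITD. All came from bone marrow LT-HSC of C57BL/6 mice aged 8 to 11 weeks, sorted by flow cytometry. MxCRE is an interferon-inducible Cre that acts in hematopoietic cells and beyond; the labels name it for the control alone and do not say whether the mutant lines carry it, whether it was induced, how many mice were pooled or in which order the libraries were made. With 1 library per genotype no difference had a replicate and none was tested, and genotype cannot be told apart from mouse, sex or library.

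The departure of a gene is the log2 ratio of NPMc+/Flt3-ITD to Mx minus the log2 ratio of NPMc+ to Mx minus the log2 ratio of Flt3-ITD to Mx. It is 0 where the 2 effects multiply, positive where the double mutant lies above that product and negative where it lies below. Levels are in CPM: all UMIs (counted molecules) of a gene in a library's kept cells, scaled so that every library has the same total. Of 26687 gene symbols, 6256 reached a mean of 20 CPM over the 4 libraries and have a departure. The floor lay between Pcsk7, at a mean of 20.003 CPM, and Scaf8, just under it. Intervals in brackets are 95% and cover counting error alone, from 20943905 to 26965367 UMIs per library, so they do not measure how far mice differ.

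The libraries differed in more than genotype. Kept cells numbered 2519 in Mx, 2375 with NPMc+, 2393 with Flt3-ITD and 3321 with both, with a median of 7323 to 9466 UMIs per cell. Cells called male by Y-linked transcripts made up 67.6%, 70.0%, 56.1% and 93.1% of the sexed cells, so only 179 cells of the double mutant were called female. Summed CPM of 14 LT-HSC markers was, in that order, 1367, 1109, 756 and 537, with none of the 14 at 0, while 16 T-lineage markers summed to 154, 178, 180 and 1989. The label of LT-HSC therefore held least well in NPMc+/Flt3-ITD, where 2605 of 3321 cells (78.4%) held at least 3 UMIs of T-lineage markers against 11.8% to 24.5% in the others. In Mx, Tcf7, Bcl11b, Lck and Tcrg-C1 were at 2.24, 1.003, 11.3 and 2.67 CPM, so other markers made up most of its sum of 154. Cells left out below as T-lineage cells are those with this marker count and need not be of the T lineage. Cells called other-lineage held at least 3 UMIs of T-lineage, of B cell, of erythroid or of mast and basophil markers. They numbered 499 of 2519 in Mx, 1512 of 2375 with NPMc+, 759 of 2393 with Flt3-ITD and 2795 of 3321 with both. The B cell, megakaryocyte and mast cell markers also moved and are given beside the genes they touch. In pooled cells, fewer cells of a type and less RNA per cell cannot be told apart. Over all pairs of libraries 160 barcode sequences were shared, 52 with both copies kept.

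Departures centred above 0, with a median of 0.25, 5% of genes under -1.08 and 5% over 1.03. A departure of at least 1, a double mutant at 2-fold or more of the expectation, was found for 345 genes (5.51%), and one of -1 or less for 344 (5.5%). The genes next to the thresholds were Pbxip1 at 1.0002 and Stk38 at 0.999, and Rcc2 at -1.01 and Cdca8 at -0.997. Another 2210 genes (35.3%) lay within 0.25 of 0. Since the median was not 0, counts relative to it were 172 above (2.75%) and 452 below (7.23%); with edgeR's TMM scaling, which shifted every departure by -0.31, they were 141 (2.25%) and 483 (7.72%) of the same genes. Ribosomal protein genes took 317600 CPM in Mx, 299219 with NPMc+, 295076 with Flt3-ITD and 213392 with both, and a smaller share raises the CPM of other genes. With mitochondrial and ribosomal protein genes left out of the library totals, the median of the same genes was 0.13. The balance of high and low departures over all genes therefore depends on the scaling.

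Seen from the other side, the departure is the Flt3-ITD effect measured on NPMc+ minus the same effect measured on Mx, and these 2 effects share no library. Flt3-ITD was at least 1.5-fold higher than Mx for 280 genes (4.48%), and NPMc+/Flt3-ITD than NPMc+ for 729 (11.7%); 94 genes were in both sets, 33.6% of the first and 12.9% of the second. For 293 (4.68%) and 470 genes (7.51%) the step was at least 1.5-fold down, with 96 in both. Opposite 1.5-fold moves were seen for 45 genes that were higher on Mx and lower on NPMc+ and for 26 of the reverse kind. Across genes, which are not replicates, the 2 effects had a Pearson correlation of 0.137, and the corresponding NPMc+ effects on Mx and on Flt3-ITD one of 0.172. Most genes had little to add: 3675 of 6256 (58.7%) were within 0.32 of Mx on the log2 scale in both single mutants.

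**Figure D1:**
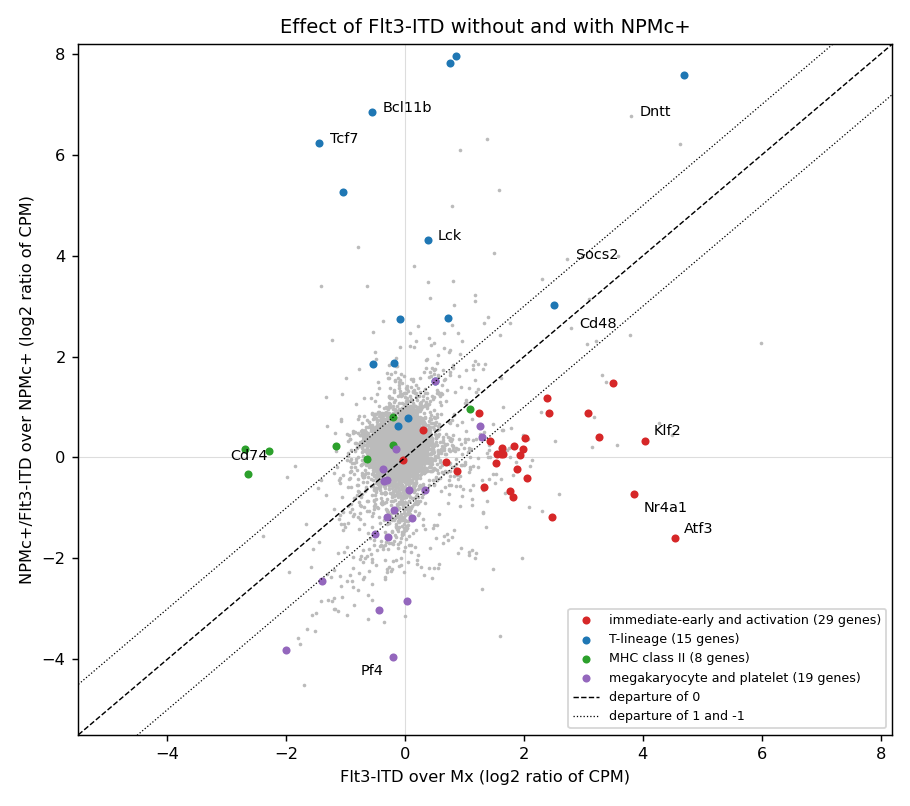
Each point is 1 gene; the x axis is the log2 CPM ratio of Flt3-ITD to Mx and the y axis that of NPMc+/Flt3-ITD to NPMc+, with the dashed line at a departure of 0 and dotted lines at 1 and -1. T-lineage genes (blue) lie high above the line, immediate-early genes (red) far to its right, and 3 of the 6256 genes fall outside the axes.

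The sequences below are promoters of 4 genes from the 2 groups with opposite departures that were held in male and in female cells: Nr4a1 and Btg2 of the immediate-early group, and H2-Aa and H2-Eb1 of the MHC class II group. Each is 250 bases before to 50 after the RefSeq start on GRCm38.p6, printed 5′ to 3′ on the gene's strand: chr15:101266596-101266895 (+) for Nr4a1, chr1:134079106-134079405 (-) for Btg2, chr17:34287774-34288073 (-) for H2-Aa and chr17:34305617-34305916 (+) for H2-Eb1. Capitals mark the cyclic AMP response element TGACGTCA or its core CGTCA, the site of CREB and ATF factors, and in the class II genes the Y box CTGATTGG, an NF-Y site of class II promoters.
Nr4a1: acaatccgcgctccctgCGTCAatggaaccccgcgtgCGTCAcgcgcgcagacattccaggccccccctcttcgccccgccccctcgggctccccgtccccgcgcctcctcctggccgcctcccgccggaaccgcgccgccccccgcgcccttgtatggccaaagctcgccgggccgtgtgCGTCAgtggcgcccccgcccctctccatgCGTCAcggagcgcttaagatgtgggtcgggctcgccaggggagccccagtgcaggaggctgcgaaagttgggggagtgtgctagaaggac
Btg2: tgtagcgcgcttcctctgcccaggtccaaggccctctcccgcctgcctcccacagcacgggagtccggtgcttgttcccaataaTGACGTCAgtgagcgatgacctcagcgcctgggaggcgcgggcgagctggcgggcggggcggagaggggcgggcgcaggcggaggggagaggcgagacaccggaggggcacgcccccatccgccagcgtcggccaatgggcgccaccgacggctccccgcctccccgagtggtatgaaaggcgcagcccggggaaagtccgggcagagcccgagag
H2-Aa: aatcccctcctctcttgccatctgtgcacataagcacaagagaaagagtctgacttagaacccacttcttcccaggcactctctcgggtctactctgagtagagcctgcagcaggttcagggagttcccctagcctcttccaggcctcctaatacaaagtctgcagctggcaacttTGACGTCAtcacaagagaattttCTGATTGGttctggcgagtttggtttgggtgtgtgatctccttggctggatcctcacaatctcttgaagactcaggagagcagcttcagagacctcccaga
H2-Eb1: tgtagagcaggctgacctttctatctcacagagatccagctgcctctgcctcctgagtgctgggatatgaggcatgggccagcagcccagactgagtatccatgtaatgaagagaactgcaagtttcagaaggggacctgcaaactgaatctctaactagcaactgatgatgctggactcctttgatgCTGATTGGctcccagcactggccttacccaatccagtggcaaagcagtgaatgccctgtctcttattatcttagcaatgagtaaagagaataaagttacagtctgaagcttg
TGACGTCA was found on either strand in 2.03% of the 27025 genes with a promoter in the table, in 3.998% of the 4903 of them at the floor, and in 4 of the 25 immediate-early genes at the floor with a promoter (Btg2, Dusp1, Maff and Ppp1r15a). The Y box CTGATTGG stood in 4.70% of all genes, 6.91% of those at the floor and 3 of 6 class II genes (H2-Aa, H2-Eb1 and H2-Oa), and H2-Aa held TGACGTCA beside it. The AP-1 motif TGANTCA was in 1 of the 25 immediate-early genes against 8.97% of all genes and 5.34% at the floor, and the CArG box, the site of serum response factor, in 1 against 1.81% and 1.49%. The TCF/LEF motif CTTTGAT was in none of the 25 against 4.29% and 3.06%. These 5 motifs were chosen with the departures known. The core CGTCA was searched for after the sequences had been seen: Nr4a1 holds 4 copies, and 0.255% of genes hold at least 4. Atf3, the immediate-early gene with the lowest departure, holds 1 copy, and 23.05% of genes hold at least 1. These are matches of letters; binding was not measured.

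Immediate-early genes, which cells switch on rapidly and briefly on growth signals, stress or handling, were mostly higher than Mx in both single mutants (26 of the 29 measured, against 30.8% of all genes), and in the double mutant lay below the product of the 2 effects. Of 33 genes on the list, 29 reached the floor, and 25 of these had a departure of -1 or less, against 5.5% of all genes; none was at 1 or more. The list's median departure was -1.63, while its median log2 ratio to Mx was 1.04 with NPMc+, 1.82 with Flt3-ITD and 1.04 with both. In the double mutant 27 of the 29 genes were above Mx, against 69.6% of all genes, 25 were below Flt3-ITD, against 22.4%, and 11 were below both single mutants, against 16.1%. The ratios to Mx and the departure share the 1 Mx library. A low level in that library raises these ratios and lowers the departure together, so they are not separate observations.

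Atf3, a stress-induced repressor of the ATF family (chr1:191170296-191218039, -), stood at 6.54 CPM in Mx, 75.8 with NPMc+, 152 with Flt3-ITD and 24.9 with both. The 2 single mutants were high, the double mutant was low, and the additive expectation was 1759.8 CPM, for a departure of -6.14 (-6.43 to -5.86). Nr4a1 (chr15:101254269-101274795, +), an orphan nuclear receptor induced by growth factor and antigen receptor signals, was measured at 45.6 CPM in Mx, 159 with NPMc+, 659 with Flt3-ITD and 96.1 with both. Flt3-ITD alone held the high level, and the double mutant lay under both single mutants, with a departure of -4.58 (-4.698 to -4.46). Klf2 (chr8:72319033-72321656, +), a quiescence-associated zinc finger factor, was at 94.01 CPM in Mx, 594 with NPMc+, 1539 with Flt3-ITD and 749 with both, so the double mutant lay between the 2 single mutants, and its departure was -3.70 (-3.77 to -3.63).

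The AP-1 subunits departed by less. Fos was at 1164 CPM in Mx, 3087 with NPMc+, 4125 with Flt3-ITD and 3621 with both, with a departure of -1.59, and Jun, Junb and Jund departed by -1.49, -2.103 and -1.81. For Fos the double mutant lay between the 2 single mutants, both well above Mx. Maff, a small MAF factor, was at 12.1 CPM in Mx, 21.8 with NPMc+, 66.9 with Flt3-ITD and 9.57 with both: here the double mutant was the lowest of the 4 libraries, and the departure was -3.66 (-3.95 to -3.37). Btg2, an antiproliferative p53 target, stood at 69.9 CPM in Mx, 301 with NPMc+, 592 with Flt3-ITD and 551 with both, near the level of Flt3-ITD, with a departure of -2.21 (-2.297 to -2.12). The 4 list members not past -1 were Dusp1 (-0.79), Gadd45b (-0.36), Dusp2 (-0.03) and Gadd45a (0.24).

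The pattern was held in subsets of cells. In male cells 25 of the 29 genes had a departure of -1 or less, with a median of -1.79, against 5.71% of all genes, and in female cells 23 of 29, with a median of -1.86, against 4.62%. In male cells Nr4a1 was at 47.7 CPM in Mx, 159 with NPMc+, 637 with Flt3-ITD and 92.2 with both and in female cells at 40.4 CPM in Mx, 153 with NPMc+, 709 with Flt3-ITD and 116 with both, for departures of -4.53 and -4.53. With every cell that held at least 3 UMIs of T-lineage markers left out, 20 of 29 were at -1 or less, against 5% of all genes. Relative to a sum of the 2 effects in CPM rather than a product, 16 of 29 were at -1 or less, against 4.14% of all genes, and Btg2 (-0.58) was not among them. The order and timing of sorting are not in the labels and cannot be told apart from genotype.

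Some genes of signal feedback and stress were also far below the expectation, while most of their lists were not. Departures of -1 or less, seen for 5.5% of all genes, were found for 4 of 13 NF-kB and inflammatory genes at the floor, 3 of 12 cytosolic heat shock genes, 3 of 11 p53 targets, 3 of 10 inhibitors of DNA binding and TGF-beta genes and 1 of 16 genes of the unfolded protein and integrated stress response, and the 5 medians lay between -0.20 and -0.02. The low members were singled out for their values. Spry1, an inhibitor of RAS signalling, was at 13.03 CPM in Mx, 28.96 with NPMc+, 64.4 with Flt3-ITD and 13.9 with both, and Socs3, an inhibitor of cytokine receptor signalling, at 24.2 CPM in Mx, 85.6 with NPMc+, 145 with Flt3-ITD and 51.5 with both. Both were high in each single mutant, highest in Flt3-ITD, and lower than both in the double mutant, with departures of -3.36 (-3.63 to -3.102) and -3.32 (-3.49 to -3.15). Id1, an inhibitor of basic helix-loop-helix factors, was at 4.01 CPM in Mx, 10.97 with NPMc+, 90.5 with Flt3-ITD and 14.98 with both, high in Flt3-ITD alone, and departed by -4.05 (-4.45 to -3.66). Plk2, a polo-like kinase and p53 target, was at 14.7 CPM in Mx, 34.1 with NPMc+, 57.4 with Flt3-ITD and 8.53 with both, lowest in the double mutant, with -3.97 (-4.25 to -3.69). Cxcl2 (-3.59), Tnfaip3 (-2.37), Cdkn1a (-1.88), Smad7 (-1.74) and Cebpb (-1.53) lay on the same side. Hspa1a, a heat-inducible chaperone whose copy Hspa1b is nearly identical, was at 14.6 CPM in Mx, 247 with NPMc+, 35.8 with Flt3-ITD and 40.2 with both and departed by -3.91.

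The STAT5 feedback genes Socs2 and Cish had other shapes. Socs2, a cytokine signalling inhibitor induced by STAT5, was at 36.7 CPM in Mx, 36.9 with NPMc+, 243 with Flt3-ITD and 563 with both. It was level in Mx and NPMc+, high in Flt3-ITD and highest in the double mutant, with a departure of 1.204 (1.06 to 1.35), against 0.71 in male and 0.68 in female cells. Cish was at 19.1 CPM in Mx, 28.9 with NPMc+, 41.9 with Flt3-ITD and 48.8 with both, with -0.37 (-0.59 to -0.16), and the kinase Pim1 was near 0 (-0.03). Of 27 names on the list of STAT5, RAS and cytokine feedback, 15 reached the floor, 1 was at 1 or more (5.51% of all genes were) and 4 at -1 or less (5.5%), with a median of -0.22.

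**Figure D2:**
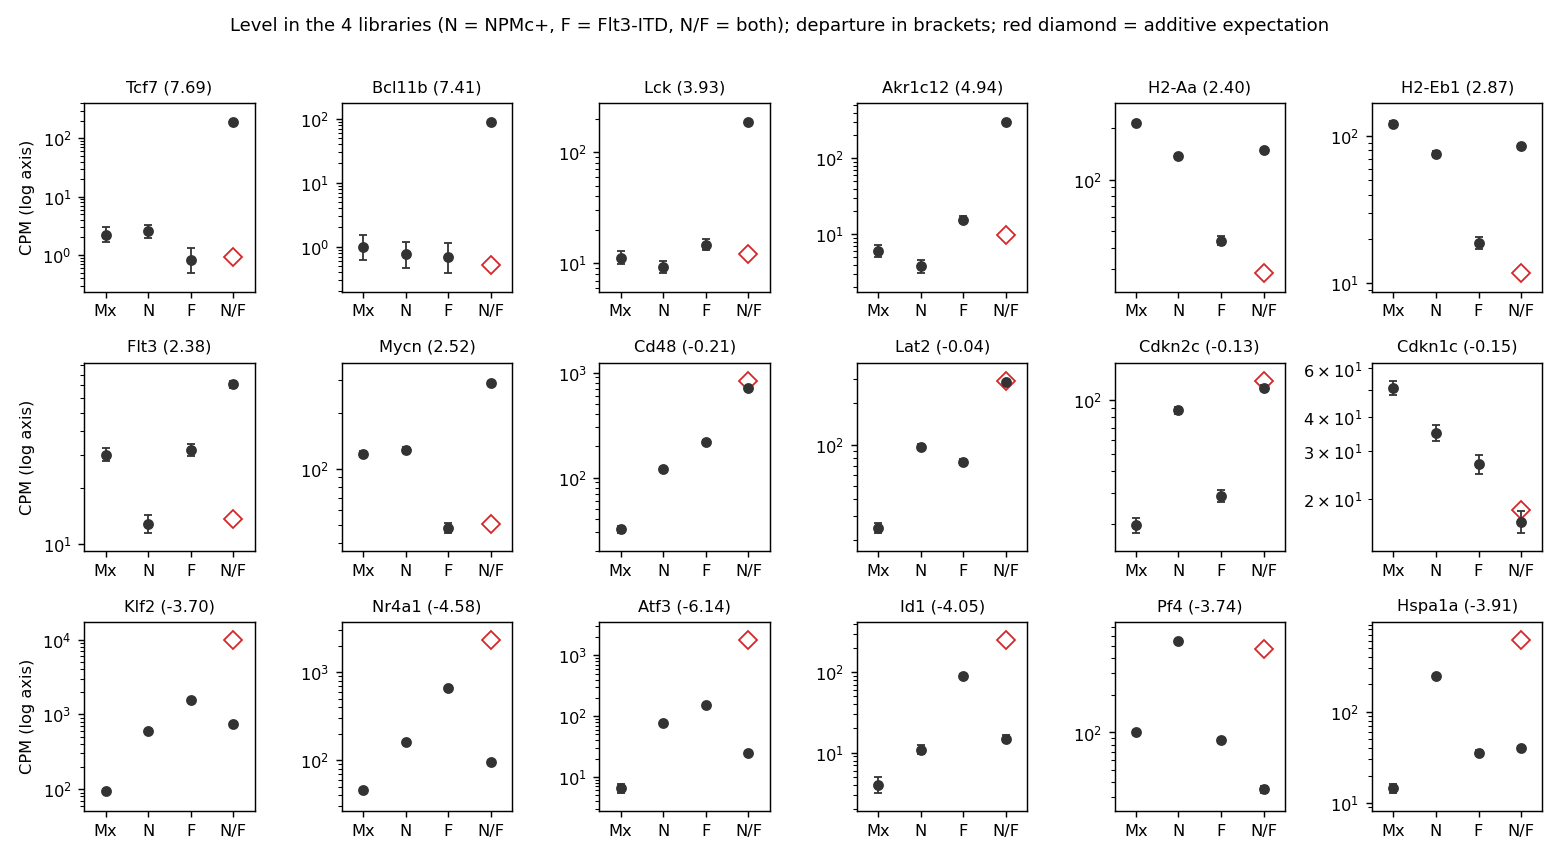
CPM on a log axis in Mx, NPMc+ (N), Flt3-ITD (F) and NPMc+/Flt3-ITD (N/F) for 18 genes, with bars for 95% Poisson intervals, the additive expectation as a red diamond and the departure after each name. The double mutant lies far above the diamond for Tcf7 and Bcl11b, close to it for Lat2 and Cdkn2c, and far below it for Atf3 and Nr4a1.

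The highest departures among the named genes belonged to T-lineage genes that were low in 3 libraries and high in the double mutant alone. Of 35 names, 15 reached the floor and 20 did not; since most that passed did so through the double mutant, their counts are a description: 12 were at 1 or more (5.51% of all genes were), none at -1 or less, with a median of 2.82. Tcf7, the T cell specification factor TCF1 (chr11:52252371-52283014, -), was at 2.24 CPM in Mx, 2.55 with NPMc+, 0.819 with Flt3-ITD and 192 with both. Only the double mutant was high, and the departure was 7.69 (6.82 to 8.63). Bcl11b, which commits progenitors to the T lineage, was at 1.003 CPM in Mx, 0.758 with NPMc+, 0.682 with Flt3-ITD and 87.9 with both, with 7.41 (6.22 to 8.68). Lck, the kinase of the T cell receptor, was at 11.3 CPM in Mx, 9.29 with NPMc+, 14.8 with Flt3-ITD and 185 with both, with 3.93 (3.62 to 4.24), and the receptor constant genes Tcrg-C1 (7.12), Tcrg-C4 (7.08) and Trbc1 (6.32) had the same shape. Cd3e, Cd3d, Cd3g and Zap70, needed for mature receptor signalling, were among the 20 under the floor.

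The sex of the cells and the T-lineage markers moved with these genes. Tcf7 in male cells was at 2.52 CPM in Mx, 3.07 with NPMc+, 0.539 with Flt3-ITD and 204 with both, and in female cells at 0.194 CPM in Mx, 1.43 with NPMc+, 0.857 with Flt3-ITD and 22.2 with both. The double mutant level was far lower in female cells, and the departure went from 8.28 (6.84 to 10.06) to 1.82 (-3.73 to 5.01). In male cells 11 of the 15 genes were at 1 or more, against 6.14% of all genes, and in female cells 6, against 3.63%. With cells of at least 3 T-lineage marker UMIs left out, which removes the list's own transcripts by construction, 10 of the 15 were at 1 or more, with a median of 1.54, against 5.58% of all genes. Whether the signal lies in LT-HSC or in other cells of the sort was not tested.

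Genes of lymphoid and multipotent priming had smaller positive departures. Of 34 names, 21 reached the floor, 5 were at 1 or more (5.51% of all genes were), none at -1 or less, and the median was 0.77. Dntt, the terminal transferase of early lymphoid cells, was at 1.38 CPM in Mx, 2.51 with NPMc+, 19.2 with Flt3-ITD and 276 with both, with a departure of 2.99 (2.29 to 3.65). Dntt too reached the floor only through the double mutant. Flt3 itself, whose 3' tags do not separate the mutant from the wild-type allele, was at 29.9 CPM in Mx, 12.8 with NPMc+, 31.8 with Flt3-ITD and 70.9 with both. It was low in NPMc+, level in Mx and Flt3-ITD and high in the double mutant, with 2.38 (2.14 to 2.61). In female cells Dntt departed by 0.26 (-1.33 to 1.698) and Flt3 by 0.35 (-0.29 to 0.97), so both intervals took in 0, and none of the 21 genes was at 1 or more there, where 3.63% of all genes were. Cd34, a progenitor surface protein, was at 233 CPM in Mx, 135 with NPMc+, 327 with Flt3-ITD and 448 with both, with 1.24 (1.16 to 1.31), and 0.15 in female cells.

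Several genes outside the T-lineage list also lay above the expectation, by less than Tcf7 and Bcl11b. Akr1c12, an aldo-keto reductase, was at 6.02 CPM in Mx, 3.79 with NPMc+, 15.6 with Flt3-ITD and 302 with both, with 4.94 (4.51 to 5.36), and its neighbour Akr1c13 at 59.9 CPM in Mx, 36.7 with NPMc+, 78.5 with Flt3-ITD and 412 with both, with 3.098. The double mutant was far above the other 3 libraries for both, and Akr1c12 stayed above 3 in male (4.67) and female cells (3.57). The members of this family are similar in sequence, so reads can be split between them. Tmem121 (4.97), Epcam, an epithelial adhesion protein (4.21), the interleukin-18 receptor Il18r1 (3.72), Mgst2 (3.65), Fam169b (4.06) and Xlr (5.16), of a family with near-identical copies on the X chromosome, were also among the highest. Mycn, a MYC family factor, was at 120.5 CPM in Mx, 126 with NPMc+, 48.04 with Flt3-ITD and 290.1 with both: Flt3-ITD was lowest and the double mutant highest, and the departure of 2.52 (2.405 to 2.65) was 2.59 in male and 2.11 in female cells.

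MHC class II genes had positive departures of another shape: in 7 of the 8 measured, against 46.1% of all genes, Flt3-ITD was below Mx and the double mutant above Flt3-ITD. Class II proteins present peptides to helper T cells and are known to be expressed by part of the stem cell pool. Of 10 names, 8 reached the floor, 5 were at 1 or more (5.51% of all genes were), none at -1 or less, and the median was 1.20. H2-Aa, the alpha chain of I-A (chr17:34282744-34287823, -), was at 214 CPM in Mx, 137 with NPMc+, 43.9 with Flt3-ITD and 149 with both. H2-Eb1, the beta chain of I-E, was at 122 CPM in Mx, 75.4 with NPMc+, 18.8 with Flt3-ITD and 85.1 with both, and Cd74, the invariant chain that escorts class II, at 383 CPM in Mx, 287 with NPMc+, 61.2 with Flt3-ITD and 228 with both. In all 3 the Flt3-ITD library was far below the rest and the double mutant was nearer NPMc+ than Mx or Flt3-ITD, and the departures were 2.404 (2.28 to 2.53), 2.87 (2.69 to 3.04) and 2.31 (2.22 to 2.41). The 4 libraries had the same order of Flt3-ITD lowest in H2-Ab1 (1.399), while H2-Ob (-0.13) was higher with each lesion.

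The departures were present in both sexes: H2-Aa departed by 2.51 in male and 3.17 in female cells, H2-Eb1 by 3.08 and 3.503, and Cd74 by 2.39 and 2.93. With T-lineage cells left out 5 of 8 were at 1 or more, against 5.58% of all genes. A sum of effects in CPM gave no positive expectation for these 3 genes and so no linear departure. Summed CPM of the 11 monocyte, macrophage and dendritic markers in the tables lay between 368 and 410 in the 4 libraries, and that of 12 markers of B cells, which also carry class II, was 50.8 in Mx, 1397 with NPMc+, 87.2 with Flt3-ITD and 199.9 with both. Among the B cell markers Pax5 was at 0 in all 4 libraries, and Igkc and Jchain had most of their NPMc+ UMIs in the top 1% of cells. What the cells with these markers contribute to the class II values was not tested.

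**Figure D3:**
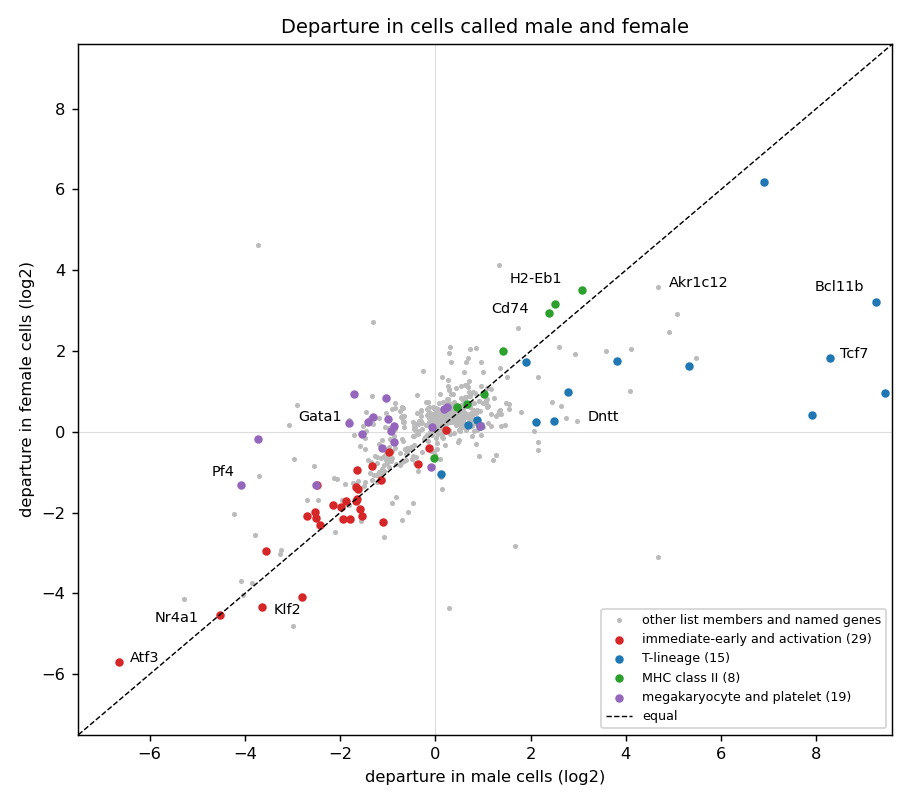
Departure in cells called male (x axis) against cells called female (y axis), log2, for 548 list members and named genes; Igkc and Jchain lie outside the axes. Immediate-early genes (red) and class II genes (green) lie near the dashed line of equality; most T-lineage genes (blue) lie below it and the megakaryocyte genes (purple) nearer 0 in female cells.

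Interferon-stimulated genes, 30 of 55 at the floor, had a median departure of 0.67, 4 at 1 or more (5.51% of all genes were) and none at -1 or less; 22 of the 30 were below Mx in Flt3-ITD and higher in the double mutant than in Flt3-ITD, against 46.1% of all genes. Igtp, an interferon-induced GTPase, was at 63.4 CPM in Mx, 50.1 with NPMc+, 30.1 with Flt3-ITD and 82.8 with both, with 1.801 (1.63 to 1.97), and the guanylate-binding protein Gbp7 at 1.01. In female cells 15 of the 30 were at 1 or more (median 0.99), against 3.63% of all genes, and in male cells 3 (median 0.47), against 6.14%. TMM scaling lowered the list's median to 0.35, against -0.06 for all genes. MHC class I and peptide loading genes, 18 of 19 at the floor, had 1 at 1 or more, near the share of all genes (5.51%), and a median of 0.59; with TMM scaling none was, and the median was 0.27.

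Among megakaryocyte and erythroid genes, 8 of 19 and 7 of 11 were above Mx in NPMc+ and below Mx in the double mutant, against 7.05% of all genes. Of 34 megakaryocyte and platelet names, 19 reached the floor, 8 were at -1 or less (5.5% of all genes were) and 1 at 1 or more, with a median of -0.89; of 25 erythroid names, 11 reached it, 7 were at -1 or less and none at 1 or more, with a median of -1.93. Pf4, platelet factor 4 (chr5:90772435-90773383, +), was at 100.3 CPM in Mx, 541 with NPMc+, 86.8 with Flt3-ITD and 35.01 with both, with -3.74 (-3.87 to -3.61). NPMc+ alone was high and the double mutant lowest. Apoe, the lipid carrier apolipoprotein E, was at 874 CPM in Mx, 1729 with NPMc+, 877 with Flt3-ITD and 194 with both, lowest in the double mutant, with -3.16 (-3.21 to -3.11), and Gata1, the erythroid and megakaryocyte master factor, at 19.4 CPM in Mx, 55.5 with NPMc+, 31.9 with Flt3-ITD and 17.9 with both, with -2.35 (-2.58 to -2.11).

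Other cell types' markers moved with these genes. Summed CPM of 12 megakaryocyte markers was 322, 1083, 289 and 242 in the 4 libraries in the order given above, and Pf4 had 23.2% of its NPMc+ UMIs in the top 1% of cells. In female cells the megakaryocyte list's median was 0.14 with 2 of 19 at -1 or less, Pf4 departed by -1.31 (-1.61 to -1.01) and Gata1 by 0.17. The erythroid list's median there was 0.30, with 2 of 11 at 1 or more (3.63% of all genes were) and 2 at -1 or less (4.62%). Without T-lineage marker cells the megakaryocyte median was -0.06 and the erythroid median -1.17. The B cell genes Igkc (-16.096) and Jchain (-12.702) were the lowest of all named genes, with 82.1% and 91.2% of their NPMc+ UMIs in the top 1% of cells, so few cells set them. The granulocyte gene Ms4a3 departed by -5.13, while S100a8 (3.56) and S100a9 (4.802) had 95.9% and 94.99% of their Mx UMIs in the top 1% of cells and changed sign without those cells.

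LT-HSC identity genes, 24 of 37 at the floor, had a median departure of -0.26, with 2 at 1 or more (5.51% of all genes were) and 4 at -1 or less (5.5%). The median was 0.38 with T-lineage cells left out, 0.39 with other-lineage cells left out and 0.22 in female cells, so its sign depends on the cells taken. In female cells none of the 24 was at -1 or less, near the share of all genes (4.62%). In 15 of the 24 the double mutant was lower than both single mutants, against 16.1% of all genes. Mllt3, a self-renewal factor, was at 131 CPM in Mx, 117 with NPMc+, 52.3 with Flt3-ITD and 23.4 with both, with -0.996. Procr, the EPCR surface marker of LT-HSC, was at 103 CPM in Mx, 87.95 with NPMc+, 49.4 with Flt3-ITD and 32.3 with both, lower with each lesion, with -0.39 (-0.55 to -0.24), and Mecom at 131 CPM in Mx, 90.9 with NPMc+, 63.4 with Flt3-ITD and 42.9 with both, with -0.03. Hoxa9 and Meis1, which mutant nucleophosmin is known to sustain, departed by 0.32 (0.203 to 0.43) and 0.33 (0.25 to 0.41). Both lay near the median of all genes (0.25), at 0.07 and 0.08 above it. Hoxa9 was at 121 CPM in Mx, 151 with NPMc+, 73.9 with Flt3-ITD and 115 with both, highest in NPMc+ and lowest in Flt3-ITD. Meis1 was at 324 CPM in Mx, 245 with NPMc+, 198 with Flt3-ITD and 188 with both, highest in Mx. Npm1, whose 3' tags do not separate the alleles, was at 1628 CPM in Mx, 1820.5 with NPMc+, 1724 with Flt3-ITD and 2180.5 with both, with 0.18 (0.15 to 0.21).

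**Figure D4:**
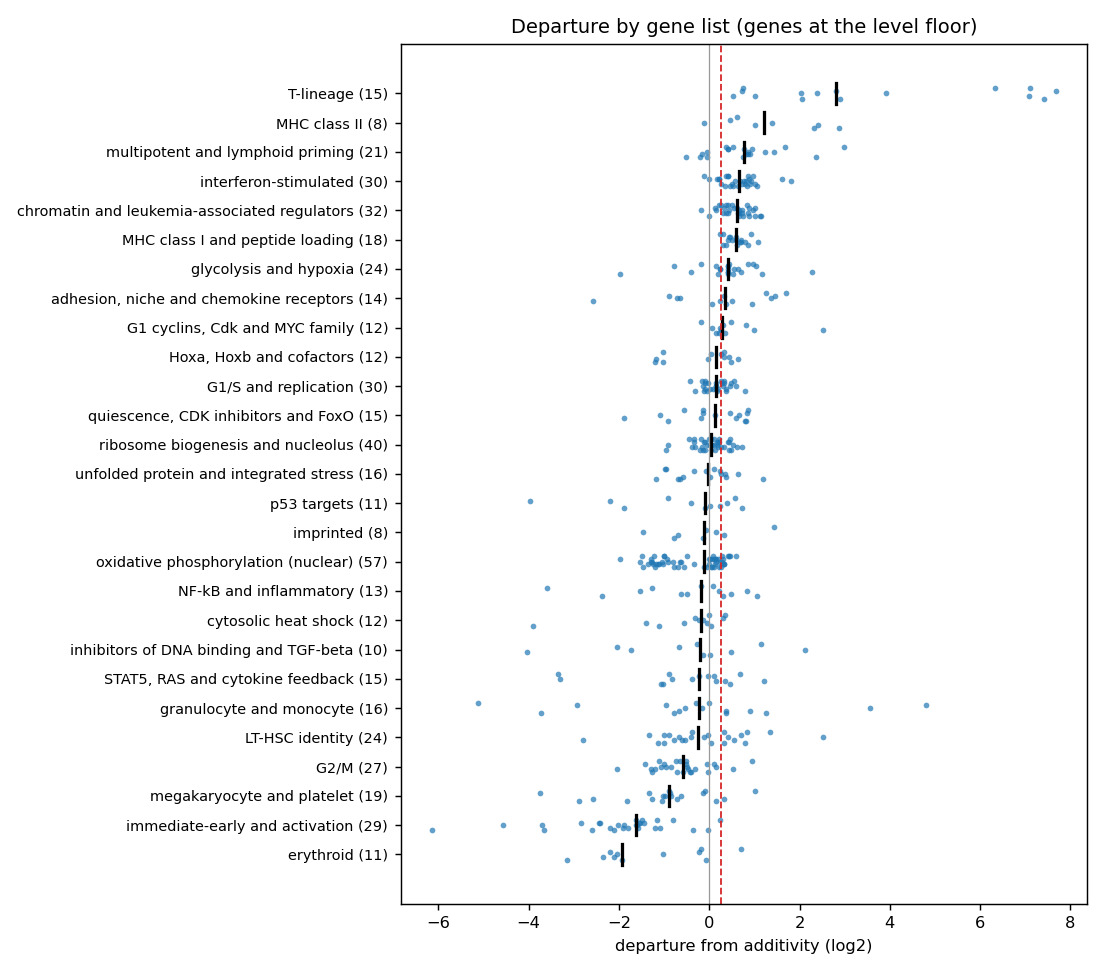
Departure (log2, x axis) of each gene at the floor in lists with at least 5 such genes; points are genes, black bars list medians, the grey line 0 and the dashed red line the median of all genes (0.25). T-lineage and MHC class II genes lie at the top, and immediate-early and erythroid genes at the bottom.

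Near 0 with a large single-mutant effect, 23 genes (0.368%) had a departure within 0.25 and a ratio of at least 2-fold in a single mutant. The 17 named genes stand for this class and its neighbours with a smaller ratio in both. TMM scaling shifted every departure by -0.31, more than the 0.25 that bounds the class, so which genes are near 0 depends on the scaling. Genes at or below 0 left the class with it, and 20 genes were then in it. Cd48, a signalling lymphocyte family protein that is absent from LT-HSC and gained by progenitors, was at 31.99 CPM in Mx, 121 with NPMc+, 220.3 with Flt3-ITD and 720.3 with both. Both single mutants were above Mx and the double mutant was near the product, 22.5-fold over Mx, with -0.21 (-0.35 to -0.09). Lat2, an adaptor of immune receptors, was at 24.5 CPM in Mx, 96.2 with NPMc+, 74.7 with Flt3-ITD and 285 with both, with -0.04 (-0.1996 to 0.12), and Cdkn2c, the CDK4 and CDK6 inhibitor p18, at 19.8 CPM in Mx, 87.6 with NPMc+, 28.9 with Flt3-ITD and 117 with both, with -0.13 (-0.33 to 0.07). Cdk6, its target, was at 287 CPM in Mx, 411 with NPMc+, 359 with Flt3-ITD and 720.3 with both, with 0.48 (0.42 to 0.54).

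Genes lower with each lesion were found near 0 too. Cdkn1c, the quiescence inhibitor p57, was at 50.9 CPM in Mx, 34.8 with NPMc+, 26.7 with Flt3-ITD and 16.5 with both, with -0.15 (-0.37 to 0.08), and Zfp467 at 57.1 CPM in Mx, 31.99 with NPMc+, 31.6 with Flt3-ITD and 18.4 with both, with 0.06 (-0.15 to 0.27). Ly6a, the SCA-1 surface protein, had effects of opposite sign, at 162 CPM in Mx, 269 with NPMc+, 87.3 with Flt3-ITD and 133 with both, and the double mutant lay between them, with -0.13 (-0.23 to -0.03). Gzmb, a granzyme, was in the class (0.03 (-1.08 to 0.99)), but the interval was wide because Mx held few UMIs. On the linear scale 5 of the 17 genes lay within 0.25, and 6 were at or past 1 in size, while 9.04% of all genes were at 1 or more on that scale: Cd48 departed by 1.22 from the sum of the effects. In male cells 11 of the 17 lay within 0.25 and in female cells 4, where Cd48 departed by -0.78.

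Genes could also depart with both single mutants within 0.32 of Mx on the log2 scale, and 8 were named for their departures. Cd96, an immunoglobulin family receptor of T and NK cells, was at 11.9 CPM in Mx, 11.01 with NPMc+, 13.8 with Flt3-ITD and 66.8 with both, with 2.39 (2.08 to 2.696); Trim13 (2.13), Id2 (2.12), Anxa2 (2.04) and Drosha (1.86) were also high in the double mutant alone. Id2 and Drosha changed sign in female cells, to -0.44 and -0.25, and Anxa2 was at 0.03 there. Cd96, Id2 and Drosha were under 20 CPM outside the double mutant and reached the floor only through it. Usp50 (-1.85), Cenpv (-2.12) and Hbb-bt (-2.03), a beta globin with near-identical copies, were low in it alone.

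Low departures were more frequent among short transcripts. Among all protein-coding genes at the floor 4.23% were at -1 or less. Where the longest annotated coding transcript was under 500 bases, 28 of 33 (84.8%) were, with a median of -1.26. From 500 to 749 bases 22.4% were, and from 1000 to 1999 bases 4.21%. The single-mutant medians in the shortest class were -0.06 and -0.10 and the double mutant's -1.50, so the pattern lay in that library. Ribosomal protein genes, 86 at the floor, had 32 at -1 or less, against 5.5% of all genes, and a median of -0.77. GENCODE pseudogenes, 112 at the floor, had 69 at -1 or less and a median of -1.30. Most of these pseudogenes are near-identical copies of expressed genes and uncertain. Nuclear oxidative phosphorylation genes, 57 at the floor with 30 shorter than 1000 bases, had 17 at -1 or less, again against 5.5%. Atp5e (-1.49) and Ndufa1 (-1.53) were among them, while the longer Ndufs1 was at 0.58. In male cells 32 of the 86 ribosomal protein genes were at -1 or less, against 5.71% of all genes, and in female cells 30, against 4.62%. Pf4 (588 bases) and Hbb-bt (703 bases) were also in the class from 500 to 749 bases. What the length pattern contributes to any 1 short gene was not tested.

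**Figure D5:**
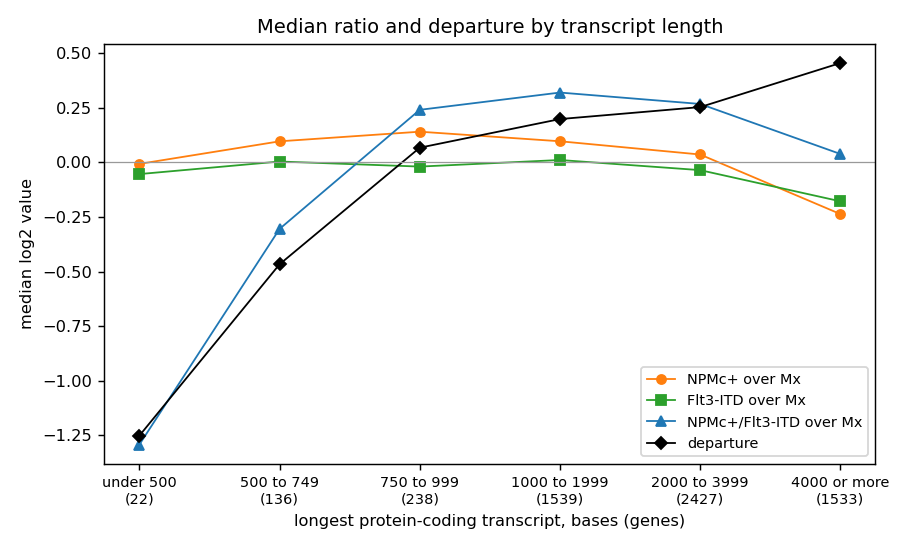
Median log2 ratio to Mx for each mutant, and median departure, by length of the longest protein-coding transcript, without ribosomal protein genes; the number of genes is under each class. The NPMc+/Flt3-ITD line and the departure drop below 750 bases while both single mutants stay near 0.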

How the data were processed

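The deposited values were UMI counts per gene and cell barcode, whole numbers with no normalization; per the submitters' processing notes, the tools were STARsolo and STAR (version 2.7.0c) and the genome build mm10. The gene annotation and the barcode filter are not given in the sources used here.

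A minimum of 1000 UMIs and of 500 genes, and a limit of 10% on mitochondrial UMIs, left 10608 of 11407 barcodes. UMIs were summed per library and scaled to CPM, and departures were taken for genes with a mean of at least 20 CPM. A library at 0 counts would have been set to 3 counts; no gene at the floor needed it. Intervals of the departure combine exact Poisson limits of the 4 counts (method of variance estimates recovery). On simulated counts they held the true value for 94.7% of 6256 genes. Those counts were drawn as Poisson, so this checks the computation alone. UMIs gathered in few cells were not simulated, and for genes with such UMIs the intervals can be too narrow. Median interval width was 0.33. With 1 library per genotype no test was run.

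Male cells had a UMI of a Y-linked gene and none of Xist, female cells the reverse. Doublet calls by Scrublet (scanpy 1.11.5) numbered 5 to 13 per library, too few for the caller to have worked, and were left out in 1 alternative only. Coordinates and transcript lengths came from GENCODE M21 (GRCm38, the build of mm10), where 25415 of 26687 symbols were found, and promoters from RefSeq. TMM factors came from edgeR 4.0.16.

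Named genes were the 15 highest and 15 lowest departures, the genes near 0 with the largest single-mutant ratios (12 by the larger and 8 by the smaller ratio), 8 with single mutants near Mx, 8 for each kind of opposite effect, the 3 furthest from the median in each of 29 lists, and 12 fixed names; other list members were named after their values were seen. Rankings left out clone names, mitochondrial, ribosomal protein and Y-linked genes, Xist and receptor segments. The members and lists were chosen with earlier results of these data known.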

Additional observations from a re-analysis of the deposited data

Results flagged for a closer look

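For the genes below, adding 1 lesion moved the level at least 1.5-fold one way on Mx and at least 1.5-fold the other way on the other single mutant. With 1 library per genotype the difference was not tested. On the log2 scale, the Flt3-ITD effect on Mx and on NPMc+ was -1.45 and 6.23 for Tcf7 (departure 7.69), -0.79 and 4.18 for Tmem121 (4.97), -1.41 and 3.39 for S100a9 (4.80), and -0.65 and 3.41 for Fam169b (4.06). It was 4.67 and -8.03 for Jchain (-12.70), 4.54 and -1.60 for Atf3 (-6.14), 1.59 and -3.54 for Ms4a3 (-5.13), and 3.85 and -0.72 for Nr4a1 (-4.58).

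The NPMc+ effect on Mx and on Flt3-ITD was -1.64 and 3.33 for Tmem121, and -0.67 and 4.27 for Akr1c12 (departure 4.94). It was 8.13 and -4.58 for Jchain, 3.53 and -2.61 for Atf3, 3.79 and -1.34 for Ms4a3, 1.801 and -2.78 for Nr4a1, 1.45 and -2.60 for Id1 (-4.05), and 1.22 and -2.75 for Plk2 (-3.97). Among all genes at the floor, 51 outside the excluded name classes had opposite Flt3-ITD effects of this size and 80 opposite NPMc+ effects.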

How the results depend on the processing

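No paired analysis was possible because each genotype had 1 library. Results were recomputed under 15 other settings and 1 added later. TMM scaling turned the median departure to -0.064 and, with the floor applied anew, left 138 genes at 1 or more; centring on the median, added after seeing the data, left 172 and set the median to 0. A floor of 10 CPM gave 656 high genes and 38 near 0; a floor of 50 CPM gave 126 high, 226 low and 13 near 0. Female cells gave 224 high genes, 85 of them shared with all cells, and 286 low, 237 shared; a linear sum gave 561 high; adding 5 CPM before the log left 15 near 0. With TMM scaling 484 genes were low, and 455 when mitochondrial and ribosomal protein genes did not count toward library totals. The direction changed in female cells for Drosha (-0.25), Gata1 (0.17), Hoxa10 (0.018), Hoxb4 (0.34), Id2 (-0.44), Tcf15 (0.15), S100a8 (-4.59) and S100a9 (-3.11), in male cells for Ighm (0.28), and on the linear scale for Ctsg (1.16). Without the top 1% of cells S100a8 was at -3.19 and S100a9 at -1.73; without other-lineage cells S100a8 was at -1.02, S100a9 at -0.51 and Sgce at 0.16; without T-lineage cells Sgce was at 0.19. The cause was not tested. A linear sum gave no value for Cd74, H2-Aa, H2-Eb1, Iigp1, S100a8, S100a9 and Tmem121. Depth limited 22 genes, whose intervals were wider than 1, and 179 female cells limit every female value of the double mutant.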

Other observations

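Of 42 G1/S and replication names, 30 reached the floor and none was at 1 or more or at -1 or less (5.51% and 5.5% of all genes were), with a median of 0.15. Of 49 G2/M names, 27 reached it and 7 were at -1 or less (5.5% of all genes were), with a median of -0.58; the difference between the phases was not tested. Ube2c, the ubiquitin-conjugating enzyme of the anaphase-promoting complex, was at 20.1 CPM in Mx, 72.99 with NPMc+, 43.6 with Flt3-ITD and 38.1 with both, with a departure of -2.05 (-2.26 to -1.85). In 24 of the 27 genes both single mutants were above Mx, against 30.8% of all genes. That count and the departures share the 1 Mx library. In 12 the double mutant was below both, against 16.1%. In female cells 1 of the 27 was at -1 or less, against 4.62% of all genes, and the median was 0.196. Without other-lineage cells 1 of 27 was at -1 or less, against 4.86% of all genes. Mki67, a proliferation marker, was at 28.4 CPM in Mx, 31.6 with NPMc+, 31.98 with Flt3-ITD and 23.7 with both. Its range was small, with both single mutants above Mx and the double mutant lowest.

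Chromatin and leukemia-associated regulators, 32 of 38 at the floor, had a median departure of 0.62, with 4 at 1 or more (5.51% of all genes were) and none at -1 or less. Nsd1, a histone H3 methyltransferase, was at 70.2 CPM in Mx, 40.8 with NPMc+, 43.7 with Flt3-ITD and 56.6 with both, lower in both single mutants than in Mx, with 1.16 (0.99 to 1.32). Dnmt3b, a DNA methyltransferase, was at 43.6 CPM in Mx, 30.3 with NPMc+, 49.9 with Flt3-ITD and 70.4 with both, highest in the double mutant, with 1.02 (0.84 to 1.197). With TMM scaling none of the 32 was at 1 or more and the median was 0.31. Their median longest transcript was 5977 bases, in the class of 4000 bases or more where the median departure of all protein-coding genes was 0.46; what length contributes was not tested. Among Hoxa, Hoxb and cofactor genes, 12 of 29 at the floor, 4 were at -1 or less, against 5.5% of all genes. Hoxb4 (-1.202), Hoxa10 (-1.18) and Nkx2-3 (-1.02) were among them. In female cells none of the 12 was, against 4.62% of all genes, and with T-lineage cells left out none was, against 5%. Both counts were near the share of all genes.

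Of the mast, basophil and granzyme list 3 genes reached the floor; all 3 were above Mx in both single mutants, and in 2 the double mutant was above both, with Srgn the exception. Cpa3, a mast cell carboxypeptidase, was at 16.1 CPM in Mx, 79.3 with NPMc+, 42.3 with Flt3-ITD and 549.7 with both, with 1.401 (1.21 to 1.59) and 0.53 in female cells. Summed CPM of the 7 mast and basophil markers in the tables was 19.7, 114, 52.3 and 659 in the 4 libraries, in the order Mx, NPMc+, Flt3-ITD and the double mutant. The imprinted antisense transcript Kcnq1ot1, which overlaps Kcnq1 on the other strand, was at 266 CPM in Mx, 165 with NPMc+, 135 with Flt3-ITD and 227 with both, with 1.44 (1.35 to 1.53), 1.495 in male and 1.35 in female cells.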
